A study of Homo sapiens with 40 samples.

Results

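Aldehyde dehydrogenases were followed in A549, a K-RAS mutant cell line derived from a human lung adenocarcinoma, with and without disruption of SETDB1, which encodes a histone methyltransferase that deposits H3K9me3. The genes were chosen by name: the rows of the gene table whose Ensembl identifier maps to ALDH1A1, ALDH1A2, ALDH1A3, ALDH1B1, ALDH2, ALDH3A1, ALDH3A2 or ALDH3B1, 8 of the 62486 genes listed. For ALDH1A1 the peaks of 5 chromatin marks in a 200 kb window on chromosome 9 (GRCh37, chr9:75450000-75650000) were added, 71 of the 614567 peaks in 10 peak lists. The window was chosen because it holds the widest H3K4me3 peak of both genotypes, so that width is a description and not a finding.

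Both genotypes are A549 cells from the ATCC. The knockout (KO) was made by CRISPR/Cas9 with guide RNAs cloned into the PX458 plasmid, and the other group is labelled Control (CT); the labels do not say what the controls received or whether either group is a single clone. RNA-seq of total RNA covered 3 libraries per genotype, ChIP-seq 2 libraries per mark and genotype, and Hi-C, which measures contacts between genomic regions, 2 libraries per genotype. The labels do not say that the replicates came from separate cultures, so p-values measure the spread between these libraries, which may be technical.

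Aldehyde dehydrogenases oxidize aldehydes to carboxylic acids with NAD+ or NADP+. ALDH1A1, ALDH1A2 and ALDH1A3 are cytosolic and convert retinaldehyde to retinoic acid, the ligand of the retinoic acid receptors. ALDH1B1 and ALDH2 are mitochondrial, and ALDH2 clears the acetaldehyde formed from ethanol. ALDH3A1, ALDH3A2 and ALDH3B1 oxidize medium and long-chain or lipid-derived aldehydes; loss of ALDH3A2 causes Sjögren-Larsson syndrome. High ALDH1A1 and ALDH3A1 are a known property of this lung cancer line, and ALDH activity is widely used to sort cells of lung tumours.

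The 3 retinaldehyde dehydrogenases differ in the sequence before their start site, which is shown because the chromatin results turn on ALDH1A1. The RefSeq promoter table (GRCh38.p14) matched 6 of the 8 genes by symbol. The 250 bases before the first listed start site lie at chr9:72953054-72953303 on the minus strand for ALDH1A1, chr15:58065712-58065961 on the minus strand for ALDH1A2 and chr15:100879581-100879830 on the plus strand for ALDH1A3. Capitals mark the motifs CCAAT (the CCAAT box), ATGCAAAT (the octamer) and GCGTG (the xenobiotic response element core), searched on both strands. Motifs for the TATA box, the antioxidant response element core, AP-1 and the E-box were searched too and had no match in the 3 sequences below.
ALDH1A1: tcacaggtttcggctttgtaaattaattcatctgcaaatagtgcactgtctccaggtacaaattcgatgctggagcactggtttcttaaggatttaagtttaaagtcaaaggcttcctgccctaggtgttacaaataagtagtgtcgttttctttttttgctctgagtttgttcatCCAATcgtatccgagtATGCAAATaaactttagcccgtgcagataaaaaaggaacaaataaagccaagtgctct
ALDH1A2: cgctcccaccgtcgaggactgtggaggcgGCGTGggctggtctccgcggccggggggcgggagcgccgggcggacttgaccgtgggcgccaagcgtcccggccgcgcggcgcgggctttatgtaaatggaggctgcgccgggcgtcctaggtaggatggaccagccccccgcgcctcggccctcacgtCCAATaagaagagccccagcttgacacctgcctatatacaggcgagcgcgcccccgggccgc
ALDH1A3: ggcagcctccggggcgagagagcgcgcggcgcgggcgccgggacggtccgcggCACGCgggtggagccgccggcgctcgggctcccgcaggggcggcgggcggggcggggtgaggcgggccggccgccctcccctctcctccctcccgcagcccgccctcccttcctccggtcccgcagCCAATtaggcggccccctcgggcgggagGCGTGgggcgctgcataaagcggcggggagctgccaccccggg
Each of the 3 sequences holds a CCAAT on the sense strand, from -74 in ALDH1A1, -62 in ALDH1A2 and -71 in ALDH1A3, counted back from the start site. CCAAT was found in 32.0% of 35116 promoters of the same length. ALDH1A1 also holds the octamer, from -58 to -51, which was found in 1.63% of promoters, and none of the other searched sequences of these genes holds it. GC content was 38.4% before ALDH1A1, 72.8% before ALDH1A2 and 82.4% before ALDH1A3, beside a median of 58.0% over all promoters, and 10.8% of promoters were at or below the value of ALDH1A1. GCGTG stands in the ALDH1A2 and ALDH1A3 sequences and was found in 32.2% of promoters. A match is a run of letters and no evidence of a bound factor.

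The libraries held 18065062 to 48364919 counts. SETDB1 itself, the targeted gene, was measured at 37.5, 39.6 and 38.7 CPM (counts per 1000000 counts, scaled by TMM) in the control libraries and at 23.4, 21.2 and 21.1 CPM in the KO libraries. Its transcript was lower but still present in all KO libraries (log2 fold change -0.82, edgeR adjusted p = 1.7e-12). Whole-gene counts do not show the edited exon. Of 8 epithelial marker genes 7 rose and 0 fell in KO, beside 32.8% of all tested genes called higher and 30.0% lower. Their summed level was 4464 to 4886 CPM in control and 10830 to 11634 CPM in KO. The largest terms of the sum, KRT8, KRT18 and KRT7, lie on chromosome 12, where the median log2 fold change was 0.37. The part of that shift in the sum was not tested. Of 8 alveolar type II markers 2 passed the filter on low counts and both rose; SFTPA1 was at 0 in every library, and NKX2-1 was at 0 in all control libraries. Among markers of other cell types, CD3E, COL1A2 and DCN were at 0 in every library; of 6 leukocyte markers 2 were tested and ITGAM fell, of 6 fibroblast markers 2 were tested and both rose, and CDH5, an endothelial cadherin, was 0.289 ± 0.083 CPM in control and 4.53 ± 0.67 CPM in KO (SD, n = 3). The summed leukocyte markers were 9.47 to 10.7 CPM in control and 5.54 to 7.26 CPM in KO, the endothelial markers 0.276 to 0.412 and 3.97 to 5.28 CPM, and the fibroblast markers 3.57 to 3.70 and 4.89 to 5.30 CPM. These shifts move with genotype, as the aldehyde dehydrogenases do, and their part in the results below was not tested. All libraries are of the A549 line, so these markers are not read as counts of other cell types. In bulk RNA of the line, fewer expressing cells and less RNA per cell cannot be told apart.

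Expression of the family was compared between KO and control with edgeR's quasi-likelihood test over 17767 genes. Of the 8 genes, 7 passed the filter on low counts; 4 of them rose in KO (ALDH1A1, ALDH2, ALDH3A1 and ALDH3B1) and 3 fell (ALDH1A3, ALDH1B1 and ALDH3A2). Over all tested genes 62.8% were called, 32.8% higher and 30.0% lower, so that a call is the usual outcome in this comparison. In each of the 7 genes the KO libraries lay wholly above or below the control libraries, as they did in 65.8% of all tested genes. None of the 7 changed by 2-fold or more, whereas 14.7% of all tested genes did. The median log2 fold change was 0.26 over the 7 genes and 0.0038 over all tested genes.

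ALDH1A1 was measured at 7389.8, 6991 and 7184 CPM in the control libraries and at 9343, 9136 and 9403 CPM in the KO libraries. All KO values were above all control values, and the gap between the groups was larger than the range within either. The level was 7188 ± 199 CPM in control and 9294 ± 140 CPM in KO (SD, n = 3), a ratio of 1.29 and a log2 fold change of 0.37 (95% interval 0.29 to 0.45, edgeR adjusted p = 4.8e-09). The gene took 0.701 to 0.718% of all counts in control libraries and 0.931 to 0.943% in KO libraries. ALDH1A1 and the other 6 tested genes kept their direction and their call in each of the 105 values obtained under other settings, and for ALDH1A1 these ran from 0.34 to 0.41 on the log2 scale.

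ALDH1A2, the retinaldehyde dehydrogenase that supplies retinoic acid in much of the embryo, had 7 counts in each control library and 3, 7 and 2 counts in the KO libraries. It did not pass the filter on low counts and was not tested. Scaled by depth these were 0.297, 0.386 and 0.240 CPM in control and 0.131, 0.142 and 0.0891 CPM in KO. The counts are too few to place the gene in either direction.

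ALDH1A3, which also catalyses this step, was measured at 14.95, 13.4 and 13.6 CPM in control and at 9.43, 9.44 and 7.57 CPM in KO. The KO libraries were the low ones, with replicate 3 the lowest. Its mean was 13.99 ± 0.84 CPM in control and 8.81 ± 1.07 CPM in KO, a ratio of 0.630 (log2 fold change -0.65, 95% interval -0.83 to -0.47, edgeR adjusted p = 3.0e-07). Its antisense transcript ALDH1A3-AS1 was lower too (log2 fold change -0.50, edgeR adjusted p = 5.6e-05). The kit marked strand, but the strand setting of the counting is not given in the sources used here, so reads of this pair may not be separated.

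The mitochondrial enzymes moved in opposite directions. ALDH1B1 was measured at 84.8, 88.2 and 88.9 CPM in control and at 57.2, 58.9 and 58.0 CPM in KO. The KO libraries were all lower, at a ratio of 0.665 (log2 fold change -0.59 ± 0.046 SE, edgeR adjusted p = 1.0e-11). ALDH2 was measured at 46.0, 47.0 and 45.1 CPM in control and at 85.3, 87.4 and 90.3 CPM in KO, the highest ratio of the 8 genes at 1.90.

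For ALDH2 the log2 fold change was 0.93 ± 0.048 (SE; edgeR adjusted p = 9.6e-16). The gene lies on chromosome 12, where the median over 854 tested genes was 0.37 on the log2 scale, against medians of -0.040 to 0.038 on the chromosomes of the other 7 genes. The part of that chromosome-wide shift in the value of ALDH2 was not tested.

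Among the class 3 enzymes, ALDH3A1, a corneal and tumour enzyme that oxidizes medium-chain and aromatic aldehydes, was measured at 934, 994 and 993 CPM in control and at 1123, 1184 and 1181 CPM in KO. The groups did not overlap, though the rise was the least of the 7, with a ratio of 1.19 and a log2 fold change of 0.26 (95% interval 0.17 to 0.34, edgeR adjusted p = 4.6e-06). ALDH3A2, the fatty aldehyde dehydrogenase of the endoplasmic reticulum, went the other way. It was measured at 449, 437 and 447 CPM in control and at 279, 273 and 282 CPM in KO, a ratio of 0.626 (log2 fold change -0.68 ± 0.039 SE, edgeR adjusted p = 1.3e-14). ALDH3A1 and ALDH3A2 are both on chromosome 17.

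ALDH3B1, which oxidizes lipid aldehydes at membranes, was measured at 189, 206 and 210.3 CPM in control and at 309.85, 342 and 334 CPM in KO. Its KO libraries were all higher, with a ratio of 1.63 (log2 fold change 0.70 ± 0.047 SE, edgeR adjusted p = 3.7e-13). Reads of its close paralog ALDH3B2 could be split between the pair by the counting. ALDH3B2 itself stood at 0.325 ± 0.18 CPM in control and 0.333 ± 0.12 CPM in KO. Summed over the 8 genes, of which ALDH1A1 is by far the largest part, the level was 8778 to 9108 CPM in control and 11092 to 11355 CPM in KO.

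**Figure D1:**
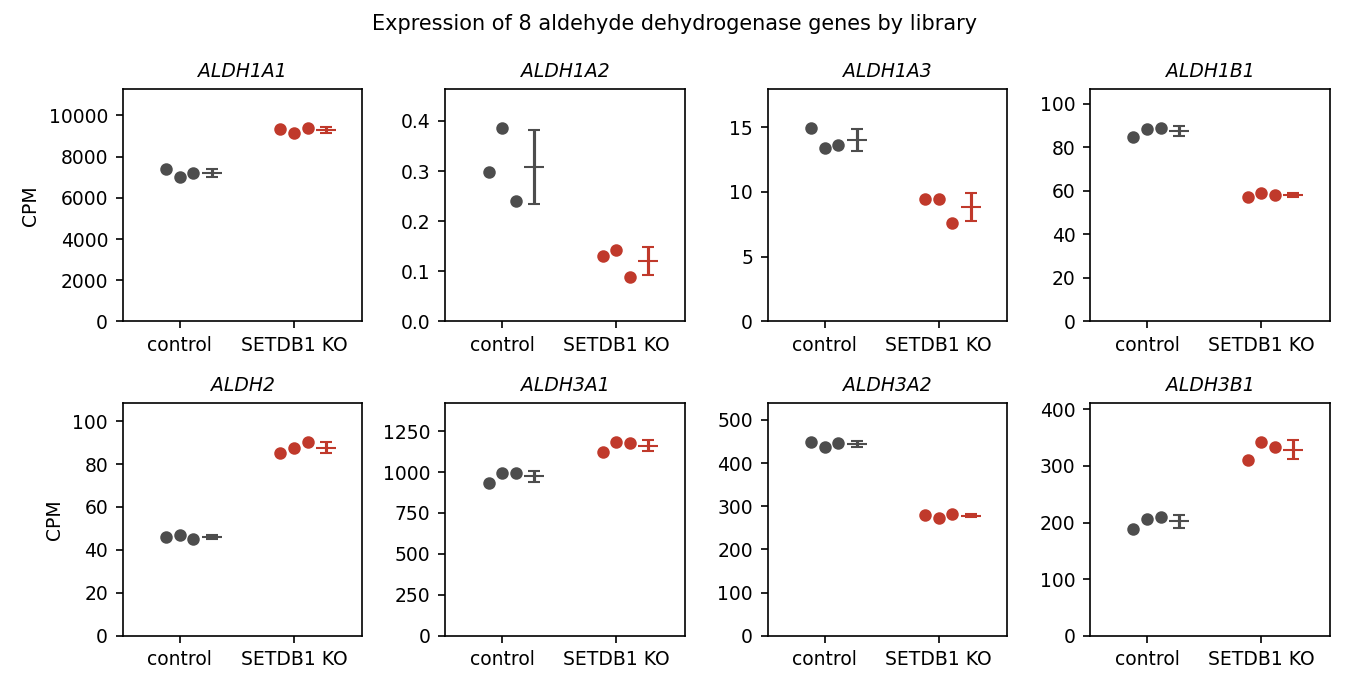
Level of the 8 genes in each library, in TMM-scaled CPM (vertical axis from 0), with points for the 3 control libraries (grey) and the 3 SETDB1 KO libraries (red) and a bar for mean ± SD. ALDH1A1, ALDH2, ALDH3A1 and ALDH3B1 are higher in every KO library, ALDH1A3, ALDH1B1 and ALDH3A2 lower, and ALDH1A2 rests on 2 to 7 counts per library.

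The other 11 aldehyde dehydrogenase genes were counted by the same test. Of these, 8 passed the filter. Among them 5 rose, 2 fell and 1 was not called, with a median log2 fold change of 0.24. Over all tested genes 32.8% were called higher and 30.0% lower. The largest change among the 15 tested genes of the family was in ALDH1L2, the mitochondrial 10-formyltetrahydrofolate dehydrogenase of folate metabolism. It was measured at 10.5, 9.77 and 10.7 CPM in control and at 3.89, 3.45 and 2.99 CPM in KO (log2 fold change -1.59 ± 0.11 SE, edgeR adjusted p = 2.3e-13), although chromosome 12, where it lies too, had a median above 0. ALDH6A1, the methylmalonate semialdehyde dehydrogenase of valine breakdown, rose from 17.4 ± 0.55 to 32.7 ± 2.0 CPM (log2 fold change 0.90, edgeR adjusted p = 1.5e-12). ALDH16A1 had a log2 fold change of 0.53 on chromosome 19, where the median was 0.34, and ALDH5A1, which oxidizes succinate semialdehyde, one of 0.33. The second gene to fall was ALDH4A1, of proline breakdown, at -0.22 (edgeR adjusted p = 0.025); it was named after its value was seen. The count of genes that fell was 1 without control replicate 2, without control replicate 3 or without KO replicate 1, and also with library size scaling only, with no expression filter and with DESeq2.

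**Figure D2:**
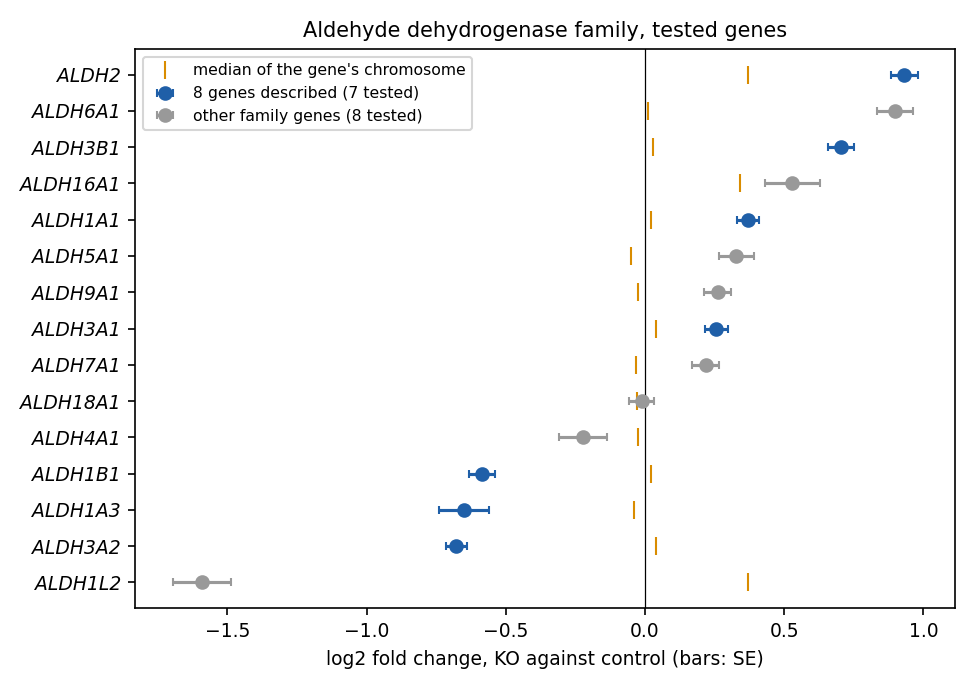
Log2 fold change of KO against control (horizontal axis, bars show the SE) for the 15 tested aldehyde dehydrogenase genes, with the 7 tested genes of the main set in blue, the other 8 in grey and the median of each gene's chromosome as an orange tick. Values run from -1.59 in ALDH1L2 to 0.93 in ALDH2, and ALDH1L2, ALDH2 and ALDH16A1 lie on chromosomes with medians of 0.34 or more.

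Genes around the ALDH1A reaction were then counted from lists of the retinoid pathway, alcohol oxidation and other carbonyl enzymes. Of 24 retinoid genes 17 were tested, of which 8 rose, 5 fell and 4 were not called (median log2 fold change 0.16). Beside these counts stand 32.8% called higher and 30.0% lower over all tested genes. RBP4, the serum retinol carrier, fell by 1.46, and CRABP2, which binds retinoic acid, fell by 1.10 on the log2 scale. CYP26A1, which degrades retinoic acid, had a log2 fold change of -1.36 (edgeR adjusted p = 0.0064), but its control level rested on replicate 3 with 49 counts against 13 and 12; without that library the value was -0.58 and was not called (edgeR adjusted p = 0.20). RDH10, which makes the retinaldehyde that ALDH1A enzymes use, was picked out after its value was seen: it rose from 74.2 ± 2.7 to 134 ± 2.4 CPM (log2 fold change 0.85, edgeR adjusted p = 1.4e-15). Changes of like size went both ways in this list: RARG had a log2 fold change of 0.89 and RARB one of -0.85. These receptors were also picked out after their values were seen.

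Of 9 genes of alcohol oxidation 4 were tested, of which 3 rose and 1 fell, beside 32.8% and 30.0% of all tested genes. ADH1C, an alcohol dehydrogenase, had 4, 1 and 4 counts in control and 36, 68 and 27 in KO (log2 fold change 3.40 ± 0.35 SE, edgeR adjusted p = 2.4e-09); its close paralogs ADH1A and ADH1B had a mean of 0 CPM in control. ADH6 stood at 0.425 ± 0.11 and 0.833 ± 0.19 CPM. ADH5, the formaldehyde-clearing form, fell from 112 ± 3.8 to 87.4 ± 4.0 CPM, and CAT, catalase, had a log2 fold change of 0.12. The calls of CAT (adjusted p up to 0.13 in edgeR) and of ADH6 (DESeq2 adjusted p = 0.051) were lost under other settings.

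The other carbonyl enzymes, mainly aldo-keto and carbonyl reductases that reduce aldehydes and ketones, were counted next. Of 17 genes 15 were tested, of which 9 fell, 2 rose and 4 were not called, with a median log2 fold change of -0.69. Over all tested genes 30.0% were called lower and 32.8% higher. AKR1C1 fell from 626 ± 23.6 to 215 ± 5.0 CPM (log2 fold change -1.54), AKR1B1 from 1107 ± 18.0 to 434 ± 21.3 CPM (-1.35), and CBR3 from 1.70 ± 0.30 to 0.721 ± 0.059 CPM (-1.25). AOX1, aldehyde oxidase, fell from 4.73 ± 0.40 to 1.03 ± 0.035 CPM, a ratio of 0.218; it lies on chromosome 2, where the median was -0.54. AKR1B10, picked out after its value was seen, fell from 4845 ± 124 to 2642 ± 35.5 CPM. AKR1C1 shares long stretches with AKR1C2 and AKR1C3, and AKR1B10 with AKR1B15, so the split of reads within these groups is uncertain. The summed level of the list was 11319 to 11672 CPM in control and 5940.2 to 6039 CPM in KO.

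**Figure D3:**
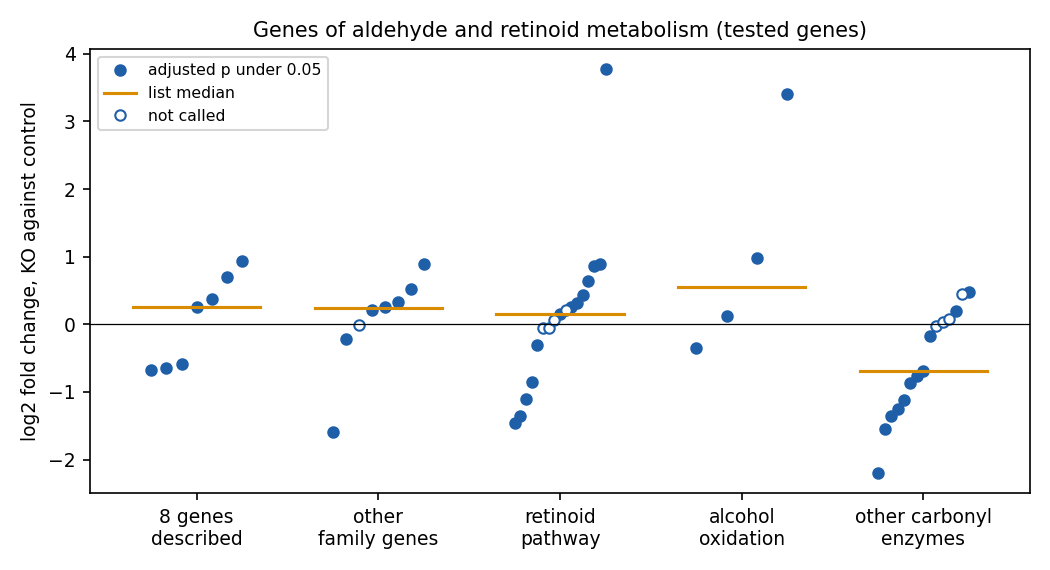
Log2 fold change of KO against control (vertical axis) for the tested genes of 5 lists, with filled points for an edgeR adjusted p under 0.05, open points for genes not called and an orange line for the list median. The medians are 0.26, 0.24, 0.16 and 0.56 for the 8 genes, the other family genes, the retinoid pathway and alcohol oxidation, and -0.69 for the other carbonyl enzymes.

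Genes with the profile nearest to ALDH1A1 were sought by the root mean square difference of centred log2 CPM over the 6 libraries, among 9427 genes. The nearest were ATP1B1 (0.0132), a sodium pump subunit, NBR1 (0.0154), an autophagy receptor, and DNAJC22 (0.0158), a membrane co-chaperone. For ALDH3A1 they were DVL2 (0.0155), PGAM5 (0.0156) and CLPP (0.0169). With 62.8% of genes called, many genes share a step between the genotypes, and the likeness describes these libraries only.

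In the ALDH1A1 window 14 of 15 control H3K9me3 peaks had no KO peak, beside 60.0% of control H3K9me3 peaks over the genome. The share was 89.9% among control peaks in bins of positive control Hi-C compartment signal, as all bins of this window are. The loss in the window is thus near the usual share for such bins. The wide H3K4me3 peak is in both genotypes by the choice of the window. H3K4me3 marks active promoters, H3K27ac active promoters and enhancers, H3K9me3 and H3K27me3 repressed chromatin, and CTCF is a DNA-binding protein at loop and domain boundaries. The lists give 1 set of peak positions per mark and genotype, with no height and no replicate, so the counts below have no error and no test. The widest control H3K4me3 peak covered 58.9 kb (chr9:75512205-75571059, GRCh37) and the widest KO peak 60.6 kb (chr9:75510765-75571370), while the gene spans 52.4 kb in RefSeq; no GRCh37 annotation was used here, so the gene was not placed relative to the peak. The next widest peaks were 48.4 kb in control and 48.8 kb in KO, both on chromosome 8, and the median widths were 1153 and 1077 bp. The KO peak holds the whole control peak and reaches 311 bp further at the higher end and 1440 bp further at the lower end, where it meets another control peak.

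H3K27ac covered 99.6% of the wide control H3K4me3 peak in control and all of it in KO. Its widest peak in the window was 50.8 kb in control, rank 7 of 55740 peaks, and 62.1 kb in KO, rank 3 of 58908. In control a separate peak of 10366 bp lies beside it, and the single KO peak spans both. Across the window H3K4me3 covered 46.9% in control and 51.9% in KO, and H3K27ac 53.2% and 55.0%. The H3K4me3 coverage follows from the choice of the window and is given with no comparison. Of the 13 control H3K4me3 peaks 0 lacked a KO peak (14.9% of all control peaks did), and of the 12 KO peaks 2 lacked a control peak (30.2% of all KO peaks did). For H3K27ac 4 of 14 control peaks and 3 of 12 KO peaks had no partner, beside 26.9% and 31.3% over the lists. Among peaks centred in bins of positive control compartment signal, the control and KO shares were 13.7% and 22.1% for H3K4me3. For H3K27ac they were 27.2% and 27.6%. These partners need an overlap of 1 bp; with a reciprocal overlap of 50%, 5 of the 13 control and 5 of the 12 KO H3K4me3 peaks had one.

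The control H3K9me3 list has 15 peaks in the window, of 347 to 8217 bp, which together cover 64.6 kb or 32.3% of it, and the KO list has 2, which cover 5.71 kb or 2.85%. Across the genome the share of control H3K9me3 peaks with no KO peak, 60.0% over all, was 89.9% among those centred in bins with a positive control compartment signal, as all bins of this window are. Of 1239 tiles of 200 kb along the genome with at least as much control H3K9me3 as this window, 297 (24.0%) kept as small a share of it or a smaller one. In the window KO coverage was 8.83% of control coverage. The tiles were taken whatever their compartment signal, so the 24.0% does not set the window beside bins like its own. The control peak that had a KO counterpart lies inside the wide H3K4me3 peak (chr9:75561682-75567631 in control and chr9:75561747-75566607 in KO). The other KO peak (chr9:75544778-75545622) is inside it too and met no control peak. The same held for 56.3% of all KO H3K9me3 peaks and for 39.1% of those centred in bins of positive control signal. Thus H3K9me3 covered 14.1% of the wide H3K4me3 peak in control and 9.70% in KO.

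H3K4me3 peaks of 10 kb or more that overlap an H3K9me3 peak were counted over the genome. They numbered 119 of 363 (32.8%) in control and 18 of 385 (4.68%) in KO, and the wide peak of this window was among them in both genotypes. The KO H3K9me3 list is shorter, with 53949 peaks against 102976 in control. The wide peak, as the widest H3K4me3 peak of each genotype, also has the most length for an overlap. Peaks come from many cells, so the overlap does not place both marks on 1 molecule. H3K27me3 had no peak in the window in either genotype.

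CTCF had 0 peaks in the window in control and 3 in KO, from 75472077, 75545742 and 75637931. Over the whole KO list 61.4% of CTCF peaks had no control peak, and that list is longer (34474 against 23903 peaks), and 54.3% of those centred in bins of positive control signal had none, so 3 unmatched peaks stand against a high background. Each of the 3 overlaps an H3K4me3 and an H3K27ac peak of both genotypes, and the middle one lies 119 bp from a KO H3K9me3 peak. The nearest control CTCF peaks were 573 kb below and 47.1 kb above the window.

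**Figure D4:**
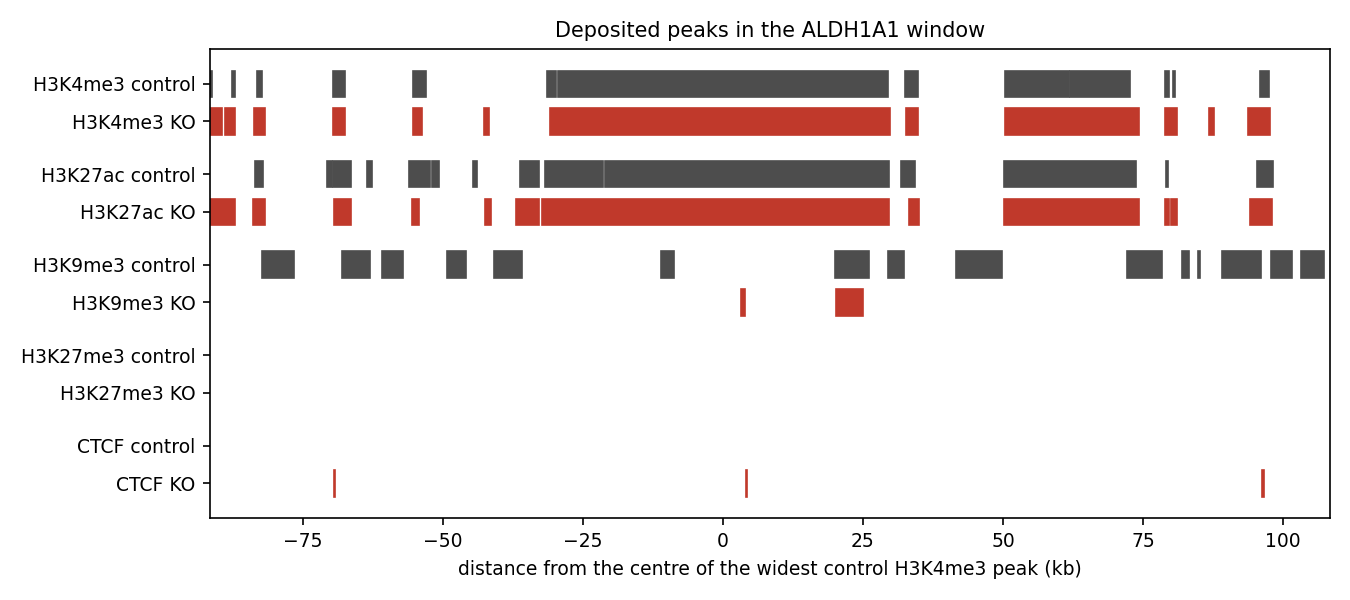
Peaks in the 200 kb ALDH1A1 window by mark and genotype (rows, control in grey and KO in red), drawn to scale against the distance in kb from the centre of the widest control H3K4me3 peak. The wide H3K4me3 and H3K27ac peaks are in both genotypes, 15 H3K9me3 peaks in control are set against 2 in KO, and 3 CTCF peaks appear in KO only.

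**Figure D5:**
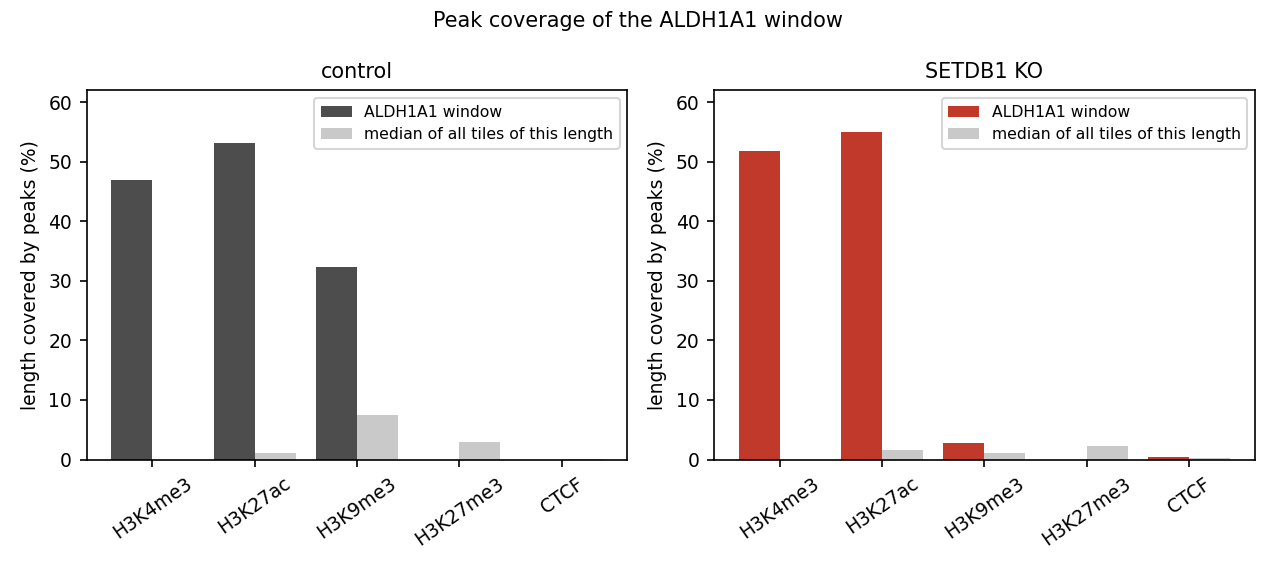
Percent of the window covered by peaks of each mark (vertical axis from 0), in control (grey, left) and KO (red, right), beside the median of all 200 kb tiles (light bars, not drawn for H3K4me3, which chose the window). H3K4me3 covers 46.9% and 51.9%, and H3K9me3 32.3% and 2.85% against 7.40% and 1.01%.

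The Hi-C compartment signal is by convention positive in active (A) and negative in inactive (B) chromatin, although the sign convention of these values is not given in the sources used here. It was positive in all 4 libraries over the 3 bins of 100 kb that meet the window. In the bin from 75500001, which holds the wide peak, it was 0.488 and 0.447 in the control replicates and 0.594 and 0.692 in the KO replicates. The difference was 0.18 (95% interval 0.071 to 0.28, limma adjusted p = 0.0082). In the bins from 75400001 and 75600001 the differences were 0.12 (limma adjusted p = 0.040) and 0.13 (limma adjusted p = 0.021). Over 26503 bins 58.8% were called and 21.5% were called higher. Without KO replicate 2 none of the 3 bins was called (limma adjusted p = 0.28, 0.10 and 0.090), and without control replicate 1 the bins from 75400001 and 75600001 were not called (0.082 and 0.066); the bin from 75400001 was not called without control replicate 2 (0.056), nor that from 75600001 without KO replicate 1 (0.10). Outside the window, the differences were 0.14 and 0.13 in the bins from 75200001 and 75300001. They were 0.43, 0.53 and 0.47 in the bins of negative signal from 75900001, 76000001 and 76100001. The bins from 75000001 and 75700001 had -0.079 and -0.048 and were not called. A rise was thus not particular to the window. Domain calls were the same in both genotypes: the window meets the topologically associating domains chr9:74880001-75460000 and chr9:75460001-75820000.

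The 5 protein-coding genes on each side of ALDH1A1 in RefSeq order did not move as a block, and chromosome 9 had a median log2 fold change of 0.021. They are near in order but not all near in distance. The gaps ran from 62374 bp (TMC1) to 914613 bp (C9orf85) on the lower side, with GDA at 640802 bp. On the higher side they ran from 198812 bp (ANXA1) to 2027737 bp (CARNMT1). On the lower side the nearest, TMC1, had 9 counts or fewer in each library and was not tested; ZFAND5 had a log2 fold change of 0.12, and C9orf85 was not called. GDA, guanine deaminase, the next one after ZFAND5, was measured at 0.934, 0.994 and 0.859 CPM in control and at 33.2, 31.1 and 33.6 CPM in KO. Its ratio was 35.2 and its log2 fold change 5.14 ± 0.11 (SE; edgeR adjusted p = 1.5e-24), far above that of ALDH1A1. C9orf57 was at 0 in every library. On the higher side ANXA1, annexin A1, stood at 1023 ± 36.4 CPM in control and 1053 ± 24.7 CPM in KO and was not called (log2 fold change 0.042, 95% interval -0.041 to 0.13). RORB was at or near 0, TRPM6 rose by 1.02 and C9orf40 by 0.66 on the log2 scale, and CARNMT1 was not called.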

How the data were processed

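RNA-seq used raw counts per gene as the authors deposited them; per the submitters' processing notes the tools include STAR 2.6.1c, edgeR 3.30.0, Bowtie2 2.2.3, SAMtools 1.5, Picard and MACS2, with the build hg19 (GRCh37). The counting program and strand setting are not given in the sources used here. Peak and domain lists, deposited by the authors as positions, hold 1 list per mark and genotype. The compartment signal is a score per 100 kb bin that the authors deposited for each replicate, on a scale not given in the sources used here.

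Genes were tested with edgeR 4.0.16 by its robust quasi-likelihood test after TMM scaling and filterByExpr, KO against control, with Benjamini-Hochberg adjustment over all 17767 tested genes and a threshold of 0.05; bins were tested with limma 3.58.1 over 26503 bins. Analyses ran in R 4.3.3 and Python 3.11.15. Identifiers matched a symbol for 93.8% of 62486 rows. Peaks were shared at an overlap of 1 bp or more. Both tests were first tested on simulated data. No 2 replicates of a genotype agreed within sampling noise. Depth was 18065062 to 48364919 counts per library.

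The genes and lists were chosen with earlier results of these data known. All 8 genes are given in every library; of each list, counts and the 4 largest changes among called genes (for lists outside the family, genes with a mean of 10 counts or more), 5 neighbours per side of ALDH1A1, and the 3 genes most like ALDH1A1 and ALDH3A1 among those with a mean of 10 CPM or more. One result that this rule selects is not reported here. Alternatives were RLE, upper-quartile and library-size scaling, 2 other filters, DESeq2 1.42.0, limma voom, counts without mitochondrial genes, a replicate block, leaving out each library, scaled Hi-C columns, a wider window, a reciprocal overlap and merged peaks. Apart from CPM sums over lists and the naming of their largest terms, levels were not compared between genes, since transcript lengths were not used here. Input libraries and signal tracks were not used here.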

Additional observations from a re-analysis of the deposited data

How the results depend on the processing

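All 7 tested genes kept direction and call under all 15 alternatives (105 values). Of the 836 values computed under any alternative, 791 were labelled the same, 21 lost their call and 24 counts or coverages moved. For counts and coverages that label allows a tolerance, so a value labelled the same can still differ. For example, DESeq2 called 9759 genes against 11157, and with upper-quartile scaling 2 alcohol oxidation genes rose against 3. No fold change or compartment difference reversed, while counts and coverages have no direction to reverse. Among the other family genes 1 instead of 2 fell with library size only, with no expression filter and with DESeq2, and 1 to 2 when single libraries were left out; among alcohol oxidation genes 1 instead of 3 rose with a filter of 1 CPM in 3 libraries and with DESeq2. Without an expression filter 30.9% of genes were called, 57.2% of them higher, against 62.8% and 52.2%.

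The compartment differences were 0.13 (bins from 75400001 and 75600001, not called) with scaled columns, and 0.079 to 0.16, 0.13 to 0.22 and 0.11 to 0.15 in the 3 bins when single libraries were left out; a group left with 1 library was assumed to vary like the other. With the window widened by 100 kb on each side H3K4me3 covered 34.0% in control and 38.7% in KO, H3K27ac 38.7% and 42.6%, H3K9me3 21.4% in control and H3K27me3 2.07% in control; the added length is covered less by the first 3 marks. With a reciprocal overlap of 50%, 5 H3K4me3 peaks of each genotype had a partner.

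Same-numbered RNA libraries deviated together weakly (correlations 0.11, 0.064 and 0.047), and Hi-C libraries did not (-0.0026), so the numbers were not taken to pair the samples. With the replicate block 11655 genes against 11157 and 15976 bins against 15584 were called, and no call of the 7 genes or of the 3 bins changed; RNA libraries 1 and 2 correlated best with their own number and library 3 did not. Depth limits ALDH1A2, at 7 counts or fewer per library. The causes of the other changes were not tested.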
